A study of Homo sapiens with 14 samples.

Results

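The 9 arrays of WM266-4 cells were compared by the replicate number in their titles, rather than by the siRNA they received. WM266-4 is a human melanoma line with a BRAF mutation. They are 9 of the 14 arrays of the series, whose other 5 are of A375 melanoma cells. Each number, 2, 1 or 3, is carried by 3 arrays, called a set here. Every set holds 1 array of cells given FOXD1 siRNA 1, 1 of cells labelled FOXD1 siRNA 2 and 1 of cells given control siRNA, a Stealth negative control of high GC content. The arrays were thus chosen by label, while the genes and lists described were chosen with earlier results of these data known. The series concerns the forkhead transcription factor FOXD1 in dedifferentiation and drug resistance of melanoma, and its own comparisons are between siRNA groups. All cells grew in DMEM with heat-inactivated serum, non-essential amino acids and β-mercaptoethanol. Total RNA was measured on Illumina bead arrays, which carry short probes for transcripts. What an equal number stands for (a culture, a day or a chip) is not stated in the labels, and neither is whether each array came from its own culture. The p-values here therefore describe the scatter of these arrays alone, part or all of which could be technical.

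Cells of a single line vary in their expression between cultures as well as between treatments. Transcripts of mitosis rise when more cells are in G2 and M phase, because the cell cycle drives their promoters through the CHR and CCAAT elements. Interferon-induced genes respond to interferon or to foreign nucleic acid through the interferon-stimulated response element (ISRE), and the ATF4 programme responds to lack of amino acids or to stress of the endoplasmic reticulum. In melanoma, pigment genes can vary between cells of one line, and so can cancer-testis antigen genes, which are silent in most normal tissues outside the testis. In bulk RNA such as this, fewer cells of a type and less RNA per cell cannot be told apart.

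FOXD1 itself was not called among sets. Its log2 signal was 6.50 with FOXD1 siRNA 1, 7.14 in the cells labelled FOXD1 siRNA 2 and 7.00 with control siRNA in set 2, 6.49, 7.10 and 6.97 in set 1, and 6.63, 7.06 and 7.21 in set 3, in the same order of siRNA groups as is used throughout. In every set it was lower with siRNA 1 than with control, and in the cells labelled siRNA 2, for which a label field names FOXD2, it was not lower in set 2 or set 1 and was lower by a small margin in set 3. The limma F test among sets gave an adjusted p of 0.669. The FOXD1 probe was detected on 7 arrays, 2 of set 2, 2 of set 1 and 3 of set 3. Its signal lay near the low end of the array's range, where differences are understated. The test therefore cannot show that FOXD1 was stable between sets. Its differences between siRNA groups are limited in the same way. CCN2, the gene of the series title, which encodes the matricellular protein CTGF, had 9.91, 9.75 and 13.20 in set 2, 10.10, 9.74 and 12.90 in set 1, and 10.11, 9.96 and 12.75 in set 3. It separated siRNA groups and not sets (adjusted p of the limma F test among sets 0.974).

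Some melanocytic markers had high signal in every set, and 17 of the 21 melanocytic and pigment genes were measured. SOX10, a neural crest transcription factor, lay between 11.54 and 11.86, and TYR, the first enzyme of melanin synthesis, between 12.94 and 13.22. MLANA was close to background and was detected on 3 of the 9 arrays. Of the markers of other cell types, 1 of 9 keratinocyte, 5 of 9 leukocyte, 1 of 7 endothelial, 6 of 8 fibroblast and 2 of 6 erythroid genes were measured at all, and 1 of them, the collagen gene COL1A2, differed by set. Mean raw intensities were 376, 377 and 374 in set 2, 348, 352 and 344 in set 1, and 389, 360 and 385 in set 3. Set 1 was thus the dimmest on each of its arrays before normalization, and the part of this in the results was not tested. Between 46.3% and 50.4% of probes were detected per array, and no pair of arrays had more than 7.37% of probes within 1% of each other.

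Arrays with the same number moved together. For each gene the mean of the siRNA group was subtracted, and the remaining deviations were correlated across 13440 genes, which are not independent replicates. Between arrays of different siRNA groups, the correlation was 0.319 to 0.421 within set 2, 0.244 to 0.29 within set 1 and 0.413 to 0.421 within set 3. It was below 0 for all 18 pairs with different numbers, from -0.331 to -0.0695. For each gene the deviations of a siRNA group add up to 0. Positive values for equal numbers thus go with negative ones for different numbers, which are not a separate observation. All 9 arrays correlated best with the arrays of their own number in the other siRNA groups. The correlations are a description of these libraries, which share their normalization.

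**Figure D1:**
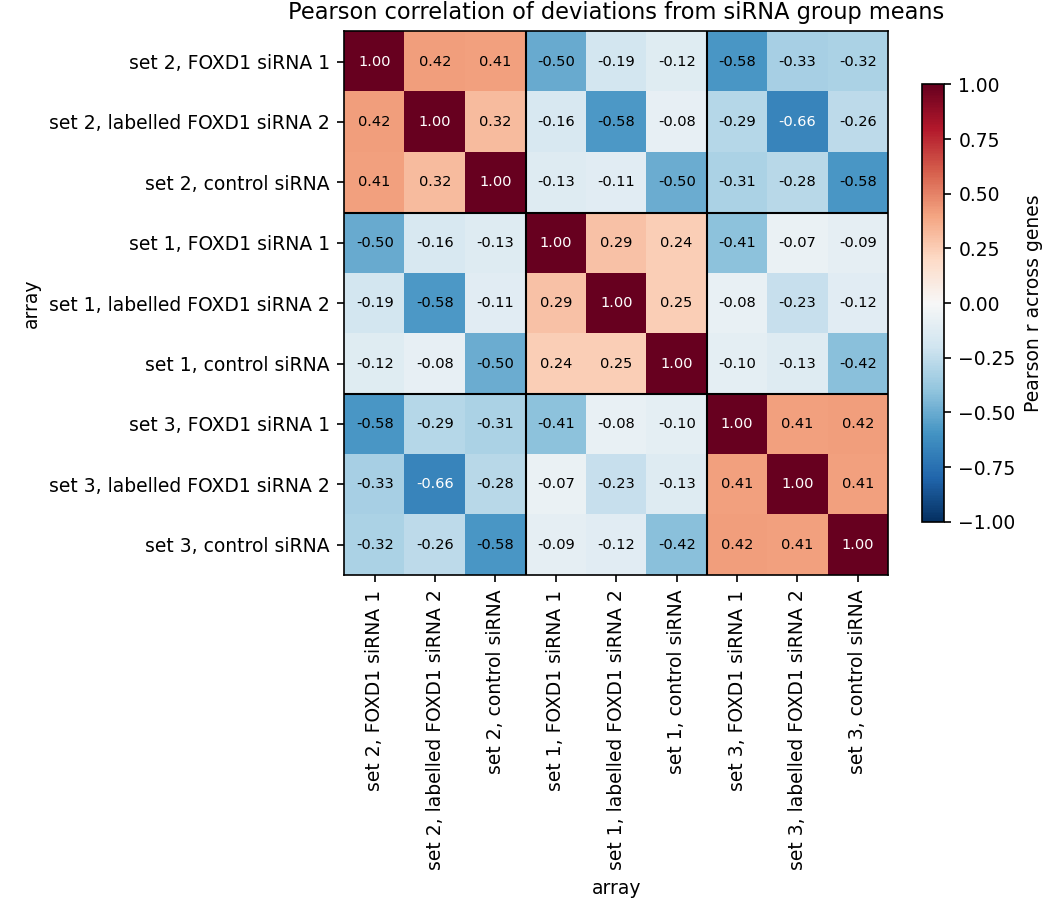
Pearson correlation across 13440 genes of each array's deviations from its siRNA group mean, for the 9 WM266-4 arrays, ordered as sets 2, 1 and 3 on both axes with lines between sets. The blocks on the diagonal hold correlations of 0.244 to 0.421 between different siRNA groups of a set, and the blocks off the diagonal are all below 0.

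A limma fit with the set and the siRNA group as terms called 796 of 13440 genes different among the 3 sets at a Benjamini-Hochberg adjusted p under 0.05, which is 5.92% of the genes tested. Set 2 against set 3 gave 761 genes (5.66%), 322 of them higher in set 2 (2.4%) and 439 lower (3.27%). Set 2 against set 1 gave 371 (2.76%), 158 higher (1.18%) and 213 lower (1.58%). Set 1 against set 3 gave 223 (1.66%), 78 higher (0.58%) and 145 lower (1.08%). At an unadjusted p under 0.05 limma gave 2541, 2036 and 1833 of the 13440 genes in these contrasts, in the same order. These contrasts share arrays and are not independent of each other. The differences were mostly small: 41 of the 796 genes spanned 2-fold or more between their highest and lowest set, and the median span was 0.473 on the log2 scale, against 0.143 over all genes. For the siRNA groups the same fit called 4683 genes (34.8%), and 554 genes were called both ways, 69.6% of those called by set and 11.8% of those called by siRNA. Over all genes, siRNA groups held 63.6% of the sum of squares, sets 20.8% and the residual 15.6%, with 2, 2 and 4 degrees of freedom. The mean squares per gene were 0.12, 0.0393 and 0.0148 in that order, so the 20.8% includes scatter like that of the residual. More of the variation lay between sets than between siRNA groups for 4366 genes, or 32.5%.

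All 796 genes had the same sign of the difference between their highest and lowest set in 3 of 3 siRNA groups, as 54.5% of all genes did. The same values made the calls and chose the highest and lowest set, so this agreement is not separate evidence for them. With 1 array per set and siRNA group, whether a set's difference depends on the siRNA cannot be tested. The number of genes called among sets was lower by more than 1.5 times without control replicate 3 (471), siRNA 1 replicate 2 (506), siRNA 1 replicate 3 (508) or siRNA 2 replicate 3 (506). With the deposited intensities corrected for background it was 129, and 35 of the 103 set differences of named genes still passed there. The contrasts gave 183 genes for set 2 against set 3, 68 for set 2 against set 1 and 6 for set 1 against set 3 with that correction. Genes at an unadjusted p were not counted over all genes with that correction. Of the calls of genes named below or held by the lists and families described, 51 of 143, 25 of 85 and 4 of 50 still passed. The 4 between sets 1 and 3 were MYL10, RASD2, RDH5 and IL17B.

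G2 and mitosis genes made the broadest difference between sets. All 46 genes of the list were measured, and 39 were higher in set 2 than in set 3, with 0 lower, where 2.4% of all genes were higher. The median difference was 0.57, against 0.00333 over all genes. The mean log2 signal of the 46 genes was 8.74, 9.42 and 9.34 in set 2, 8.37, 9.12 and 9.11 in set 1, and 7.97, 8.99 and 8.81 in set 3. Set 2 was highest and set 3 lowest within each siRNA group, although siRNA 1 arrays of any set lay below the other arrays. Set 1 lay between: 10 genes were higher in set 2 than in set 1 (median 0.27) and 6 higher in set 1 than in set 3 (median 0.28), with 0 lower in either. Of all genes, 1.18% and 0.58% were higher in these contrasts. For 44 of the 46 genes the fitted means fell in the order set 2, set 1, set 3. With background-corrected intensities 10 of the 46 passed for set 2 against set 3, at a median difference of 0.73. In the contrasts with set 1 limma then called 0, with 25 at an unadjusted p under 0.05 in each, all of them higher in set 2 than in set 1 or higher in set 1 than in set 3.

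The promoters of these genes are known for a pair of short elements, and 3 of the strongest members are printed with the matches in capitals. Sequences are from RefSeq, build GRCh38.p14, from 250 bases before to 50 after the gene's start, 5′ to 3′ along the gene. Capitals mark CHR matches (TTTGAA or TTCGAA, either strand) and CCAAT matches (either strand).
KIF20A promoter, chr5:138178862-138179161, + strand: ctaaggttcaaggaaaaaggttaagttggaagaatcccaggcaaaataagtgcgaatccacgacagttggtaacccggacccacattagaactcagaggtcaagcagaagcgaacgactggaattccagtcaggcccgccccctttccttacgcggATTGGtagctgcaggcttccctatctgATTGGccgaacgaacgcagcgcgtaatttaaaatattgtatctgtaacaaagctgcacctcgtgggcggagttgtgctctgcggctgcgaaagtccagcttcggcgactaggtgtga
DLGAP5 promoter, chr14:55191536-55191835, - strand: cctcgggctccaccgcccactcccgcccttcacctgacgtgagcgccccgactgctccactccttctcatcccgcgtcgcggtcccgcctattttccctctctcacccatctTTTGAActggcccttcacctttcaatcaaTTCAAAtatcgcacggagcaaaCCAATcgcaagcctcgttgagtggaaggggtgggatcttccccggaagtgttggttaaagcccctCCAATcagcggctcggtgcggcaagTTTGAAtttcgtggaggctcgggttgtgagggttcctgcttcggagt
BUB1 promoter, chr2:110678014-110678313, - strand: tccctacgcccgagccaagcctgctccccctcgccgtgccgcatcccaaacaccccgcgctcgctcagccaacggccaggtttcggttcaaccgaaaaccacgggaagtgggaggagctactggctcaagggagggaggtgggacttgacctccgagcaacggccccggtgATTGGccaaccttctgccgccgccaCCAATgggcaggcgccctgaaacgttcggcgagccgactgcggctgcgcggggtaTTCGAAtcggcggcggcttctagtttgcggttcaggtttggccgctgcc
DLGAP5 and BUB1 hold both elements, DLGAP5 with 3 CHR matches and BUB1 with 1, just downstream of the start. KIF20A holds 2 CCAAT matches and no CHR match in this window. Of the 46 genes, 39 had a promoter in the table, and 28 of those (71.8%) held a CHR match, against 12.1% of 10669 tested genes with a promoter. A CCAAT match was present in 30 of 39 (76.9%), against 36.8%. Of the 32 members with a promoter that were called among sets, 22 held a CHR match, beside 28 of all 39. The list was made of G2 and mitosis genes, so these shares describe the list and not the differences between sets.

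KIF20A, a kinesin of the central spindle needed for cytokinesis, had 9.16, 9.91 and 10.06 in set 2, 8.82, 9.30 and 9.83 in set 1, and 8.10, 8.90 and 9.10 in set 3. Each siRNA group kept the order set 2, set 1, set 3, and the siRNA 1 array was the lowest of each set, so the ranges of the sets overlapped. The difference of set 2 from set 3 was 1.01 (SE 0.0905, 2.01-fold, limma adjusted p = 5.13e-06). DLGAP5, which stabilises spindle microtubules, had 9.33, 9.83 and 10.01 in set 2, 8.87, 9.74 and 9.85 in set 1, and 8.15, 9.12 and 8.93 in set 3. Here set 1 stood closer to set 2: set 2 minus set 3 was 0.99 (adjusted p = 1.47e-05), set 1 minus set 3 was 0.75 (adjusted p = 0.000654, and 0.107 with background-corrected intensities) and set 2 minus set 1 was 0.24, which did not pass (adjusted p = 0.256). BUB1, a kinase of the spindle checkpoint, had 8.52, 9.49 and 9.48 in set 2, 7.83, 8.98 and 9.04 in set 1, and 7.35, 8.79 and 8.55 in set 3. It was 1.91-fold higher in set 2 than in set 3 (limma adjusted p = 1.95e-05) and 1.46-fold higher than in set 1 (adjusted p = 0.00433). The call against set 1 was lost without siRNA 1 replicate 2 (adjusted p = 0.0504) and with background-corrected intensities (adjusted p = 0.192).

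ANLN, a scaffold of the contractile ring, was 1.85-fold higher in set 2 than in set 3, and NEK2, a kinase of the centrosome, 1.83-fold (limma adjusted p = 4.18e-05 and 5.08e-05). Background correction left both past the threshold (adjusted p = 0.0201 and 0.0164). CENPW, a kinetochore component outside the list, was 1.94-fold higher in set 2 than in set 3 (adjusted p = 0.000282). The 7 list members that did not pass for set 2 against set 3 included MKI67, the proliferation marker, at 0.22 (adjusted p = 0.177), PLK1, a mitotic kinase, at 0.15 (adjusted p = 0.41) and the phosphatase gene CDC25C at 0.05 (adjusted p = 0.869).

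**Figure D2:**
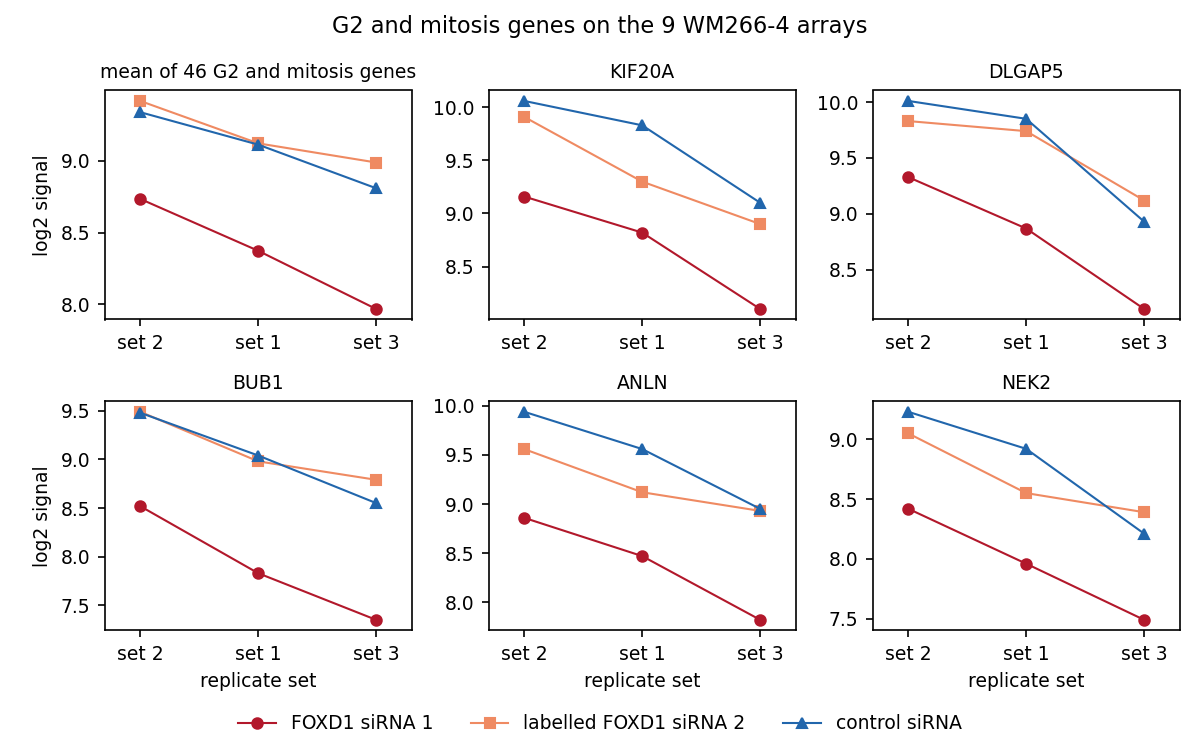
Log2 signal on each of the 9 arrays for the mean of 46 G2 and mitosis genes and for 5 of its members, by replicate set (2, 1, 3 along the x axis). Lines join arrays of 1 siRNA group (red circles FOXD1 siRNA 1, orange squares labelled FOXD1 siRNA 2, blue triangles control siRNA), and within each siRNA group set 3 is the lowest in every panel.

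Other proliferation lists held few calls. The median of the 37 measured genes of DNA replication and S phase was 0.13 for set 2 minus set 3. Of them, 2 were higher in set 2 and 0 lower, where 2.4% of all genes were higher. These were TYMS, thymidylate synthase, and PRIM1, the small primase subunit, and each call was lost in some fits that omitted a single array. For TYMS these were the fits without any siRNA 1 array, siRNA 2 replicate 3 or control replicate 2 (highest adjusted p 0.236), and for PRIM1 those without replicate 2 or 3 of either FOXD1 siRNA (highest adjusted p 0.129). With background-corrected intensities neither passed (adjusted p = 0.214 for TYMS and 0.11 for PRIM1). RRM2, a ribonucleotide reductase subunit, differed by 0.13 (adjusted p = 0.676). Of 18 measured replication-dependent histone genes, 4 were lower in set 2 than in set 3 and 0 higher, where 3.27% of all genes were lower. With background-corrected intensities 0 of these 4 calls passed, while 1 other histone gene was called lower. H2BC5 and H2AC6, both among the 4, were each detected on 8 of the 9 arrays. The H2AC6 call was lost in 4 of the fits that omitted 1 array (highest adjusted p 0.0847). CDK2, the kinase of S phase entry, had 10.10, 10.74 and 11.04 in set 2, 9.43, 9.94 and 10.10 in set 1, and 9.37, 10.05 and 10.30 in set 3. Within each siRNA group it was highest in set 2. It was 1.75-fold higher in set 2 than in set 1 and 1.65-fold higher than in set 3 (limma adjusted p = 4.04e-05 and 7.51e-05), with -0.08 for set 1 minus set 3 (adjusted p = 0.738).

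PMEL, which forms the fibrils of the melanosome, had the largest span of the genes highest in set 2 and lowest in set 3. Its log2 signal was 11.35, 11.58 and 12.31 in set 2, 10.90, 10.69 and 11.15 in set 1, and 9.91, 10.02 and 10.76 in set 3. All arrays of set 2 lay above all arrays of sets 1 and 3. It was 2.86-fold higher in set 2 than in set 3 (1.52, SE 0.112, limma adjusted p = 5.88e-07), 1.78-fold higher than in set 1 (adjusted p = 0.00054), and 1.61-fold higher in set 1 than in set 3 (adjusted p = 0.00486). With background-corrected intensities the contrasts with set 1 missed the threshold (adjusted p = 0.0667 and 0.164), and the last was also lost without siRNA 1 replicate 3 (adjusted p = 0.059). TYRP1, a melanosomal enzyme, had 8.83, 8.72 and 7.47 in set 2, 7.97, 8.04 and 7.17 in set 1, and 7.84, 7.68 and 6.99 in set 3. Its control arrays were low in every set, yet within each siRNA group set 2 was the highest and set 3 the lowest, at 1.79-fold for set 2 over set 3 (adjusted p = 0.000205).

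Most of the pigment list was not called. Of all genes, 2.4% were higher and 3.27% lower in set 2 than in set 3. Of the 17 measured members of the pigment list, 3 were higher and 1 lower, with a median of 0.12. S100A1, a calcium-binding protein, was the one that was lower, at -0.72 (limma adjusted p = 0.00054, and 0.0537 with background-corrected intensities). MITF, the lineage transcription factor, had 9.51, 9.71 and 9.84 in set 2, 9.26, 9.63 and 9.23 in set 1, and 9.10, 9.65 and 9.44 in set 3, and SOX10 and TYR also stayed outside the calls. DLL3, an inhibitory Notch ligand, shared the order of PMEL, with 10.60, 10.84 and 10.83 in set 2, 10.01, 10.09 and 10.03 in set 1, and 9.53, 9.81 and 9.80 in set 3. The 3 sets of DLL3 values did not overlap at all, and set 2 was 2.06-fold above set 3 (limma adjusted p = 1.32e-06). DLL3 did not pass the test among siRNA groups (adjusted p = 0.129).

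Some interferon-induced genes were higher in set 2. Of 44 measured genes of the list, 7 were higher in set 2 than in set 3 with 0 lower (2.4% of all genes higher), 5 were higher in set 2 than in set 1 (1.18%), and 1 was higher in set 1 than in set 3 (0.58%). The medians were 0.20, 0.14 and 0.00, and single arrays decided much of the first count, which was 4 when the control array of set 2 was left out. It was 2 with the control array of set 3 left out and 3 with the siRNA 2 array of set 3 left out. It was 0 with background-corrected intensities, by the same limma test, with 13 higher at an unadjusted p under 0.05. Without control replicate 2, the control array of set 2, the first pair of medians was 0.08 and 0.05. The mean of the 44 genes in set 2 minus that in set 3 was 0.0943 with siRNA 1, 0.0602 in the cells labelled siRNA 2 and 0.417 with control siRNA. IFIT1, which binds foreign RNA lacking host cap marks, led the list, and its promoter is printed because the known element of the pathway stands in it. Capitals mark the ISRE core (GAAA, any 2 bases, then GAAA, found here on the other strand), with matches that begin at -116 and -103 from the start.
IFIT1 promoter, chr10:89392373-89392672, + strand: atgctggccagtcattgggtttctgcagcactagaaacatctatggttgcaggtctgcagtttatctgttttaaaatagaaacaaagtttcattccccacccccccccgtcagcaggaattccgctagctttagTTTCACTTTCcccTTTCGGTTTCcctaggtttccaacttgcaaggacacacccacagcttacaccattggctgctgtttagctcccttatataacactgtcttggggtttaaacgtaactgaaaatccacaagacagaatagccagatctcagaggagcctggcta
Of 38 interferon-induced genes with a promoter, 24 (63.2%) held this core, against 3.03% of all. This share, too, describes the list and not the differences between sets.

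IFIT1 had 8.72, 8.61 and 9.61 in set 2, 7.82, 8.11 and 7.84 in set 1, and 7.73, 8.12 and 7.68 in set 3. All arrays of set 2 lay above all others, and the control array of set 2 stood highest by a wide margin. IFIT1 was 2.2-fold higher in set 2 than in set 3 (1.14, SE 0.184, limma adjusted p = 0.00137) and 2.08-fold higher than in set 1 (adjusted p = 0.00472). Leaving out single arrays moved the first difference between 0.76 and 1.44, and the highest adjusted p was 0.0231. With background-corrected intensities it was 1.48 (adjusted p = 0.0686), and the call against set 1 was lost too (adjusted p = 0.142). IFI6, an interferon-induced membrane protein, split differently, with 10.42, 10.60 and 10.31 in set 2, 10.42, 10.12 and 10.37 in set 1, and 9.87, 9.82 and 9.60 in set 3. It was 1.6-fold higher in set 2 than in set 3 (adjusted p = 0.000776, and 0.0566 with background-corrected intensities) and 1.45-fold higher in set 1 than in set 3 (adjusted p = 0.0147, and 0.207 with background-corrected intensities). This second IFI6 call was also lost without replicate 1 or 3 of control or of siRNA 1, or without siRNA 2 replicate 3 (highest adjusted p 0.152). HERC5, the ligase for the ubiquitin-like ISG15, and ISG20, an RNA exonuclease, were 1.5-fold and 1.49-fold higher in set 2 than in set 1 (adjusted p = 0.00473 and 0.00222, and 0.0797 and 0.0518 with background-corrected intensities). MX1 at 0.29 and OAS1 at 0.14 did not pass for set 2 against set 3 (adjusted p = 0.167 and 0.418). Of 15 measured class I antigen presentation genes limma called 0 in each contrast. Unadjusted p was under 0.05 for 3 (set 2 against set 3), 2 (set 2 against set 1) and 3 (set 1 against set 3). Over all 13440 genes it was so for 2541, 2036 and 1833 in that order.

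Several targets of ATF4, the transcription factor of the amino acid response, were highest in set 3. Of 24 measured ATF4 targets, 4 were lower and 1 higher in set 2 than in set 3 (median -0.19), where 3.27% of all genes were lower and 2.4% higher. In set 1, 3 were lower and 0 higher than in set 3 (median -0.23), where 1.08% of all genes were lower. Between sets 2 and 1 the list had no common direction, with a median of 0.005 and 12 of 24 differences above 0. SLC7A5 and SLC3A2 were higher in set 2 and ASNS lower, where 1.18% of all genes were higher and 1.58% lower. The SLC3A2 call was lost without control replicate 1 or 2, siRNA 1 replicate 1 or siRNA 2 replicate 1 or 2, and this ASNS call without any control or siRNA 1 array or siRNA 2 replicate 3 (highest adjusted p 0.117 and 0.229). Taking the mean of its kept probes also ended the SLC3A2 call. With background-corrected intensities 2 of the 24 passed for set 2 against set 3, both lower, and limma called 0 in each of the other contrasts, with 7 for set 2 against set 1 and 9 for set 1 against set 3 at an unadjusted p under 0.05. ASNS, asparagine synthetase, had 9.24, 9.71 and 9.67 in set 2, 9.75, 9.78 and 10.53 in set 1, and 10.45, 10.43 and 10.77 in set 3. The arrays of set 2 all lay below those of sets 1 and 3, and within each siRNA group set 3 was the highest. ASNS was 2.01-fold lower in set 2 than in set 3 (-1.01, SE 0.12, limma adjusted p = 8.9e-05), and PSAT1, an enzyme of serine synthesis, was 1.66-fold lower (adjusted p = 0.000405). SLC7A5, an amino acid transporter of the same list, was the one that was higher, at 0.31 for set 2 minus set 3 (adjusted p = 0.0396, and 0.189 with background-corrected intensities), and at 0.42 for set 2 minus set 1 (adjusted p = 0.0125). The first call was lost without replicate 2 or 3 of any siRNA group and without siRNA 2 replicate 1 (highest adjusted p 0.208). The second call was lost without siRNA 1 replicate 2, siRNA 2 replicate 1, control replicate 1 or control replicate 2 (highest adjusted p 0.0778), and with background-corrected intensities (adjusted p = 0.167). ATF4 itself was lower in set 1 than in set 3, at -0.37 (adjusted p = 0.0478, and 0.279 with background-corrected intensities). That call was lost when any array but siRNA 2 replicate 2 was left out (highest adjusted p 0.289). For ATF4, set 2 minus set 3 was -0.27 (adjusted p = 0.101). DDIT3, the stress factor CHOP, at -0.35, and TRIB3 at -0.45 did not pass (adjusted p = 0.0615 and 0.126). HSPA5, the chaperone BiP of the endoplasmic reticulum, was 1.48-fold lower in set 2 than in set 1 and 1.46-fold lower than in set 3 (adjusted p = 0.00361 and 0.00241, and 0.119 and 0.0744 with background-corrected intensities). It was one of 2 genes lower in set 2 in each of these contrasts among 15 measured chaperone genes. Of all genes, 1.58% were lower in set 2 than in set 1 and 3.27% lower than in set 3.

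Cancer-testis antigens of the GAGE family, whose function is little known, were lower in set 2. The family was singled out after its values were seen. Of 12 measured GAGE genes, 11 were called among sets (5.92% of all genes). The same number was lower in set 2 than in set 3 (median -1.24) and than in set 1 (median -1.29). Between sets 1 and 3 limma called 0, and 1 had an unadjusted p under 0.05, as had 1833 of all 13440 genes. GAGE2A had 9.51, 9.07 and 9.28 in set 2, 10.87, 10.82 and 10.86 in set 1, and 10.73, 10.65 and 10.64 in set 3. Its set 2 arrays lay more than a log2 unit below every other array, and its signal did not pass the test among siRNA groups (adjusted p = 0.249). GAGE2A was 2.96-fold lower in set 2 than in set 1 (limma adjusted p = 5.97e-08) and 2.61-fold lower than in set 3 (adjusted p = 2.27e-07). The copies of this family are near-identical in sequence, so their probes may read each other's transcripts, and the 11 genes are not 11 independent measurements.

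PAGE5, a related antigen gene, was 3-fold lower in set 2 than in set 1 (-1.58, limma adjusted p = 2.53e-08), with 7.24, 7.01 and 6.98 in set 2, 8.78, 8.58 and 8.62 in set 1, and 8.56, 8.38 and 8.38 in set 3. With background-corrected intensities this difference was -2.50 (adjusted p = 0.000561). Both measured MAGEC genes followed, with MAGEC2 at 7.56, 7.31 and 7.36 in set 2, 8.70, 8.62 and 8.59 in set 1, and 8.39, 8.08 and 8.26 in set 3. Of 9 measured MAGEA genes 1 was called among sets, MAGEA10, at -0.76 for set 2 minus set 1. Of 10 XAGE, PAGE and SPANX genes 2 were called among sets, PAGE5 and SPANXN3, and 3 were lower in set 2 than in set 3. Over all genes 5.92% were called among sets and 3.27% were lower in set 2 than in set 3.

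**Figure D3:**
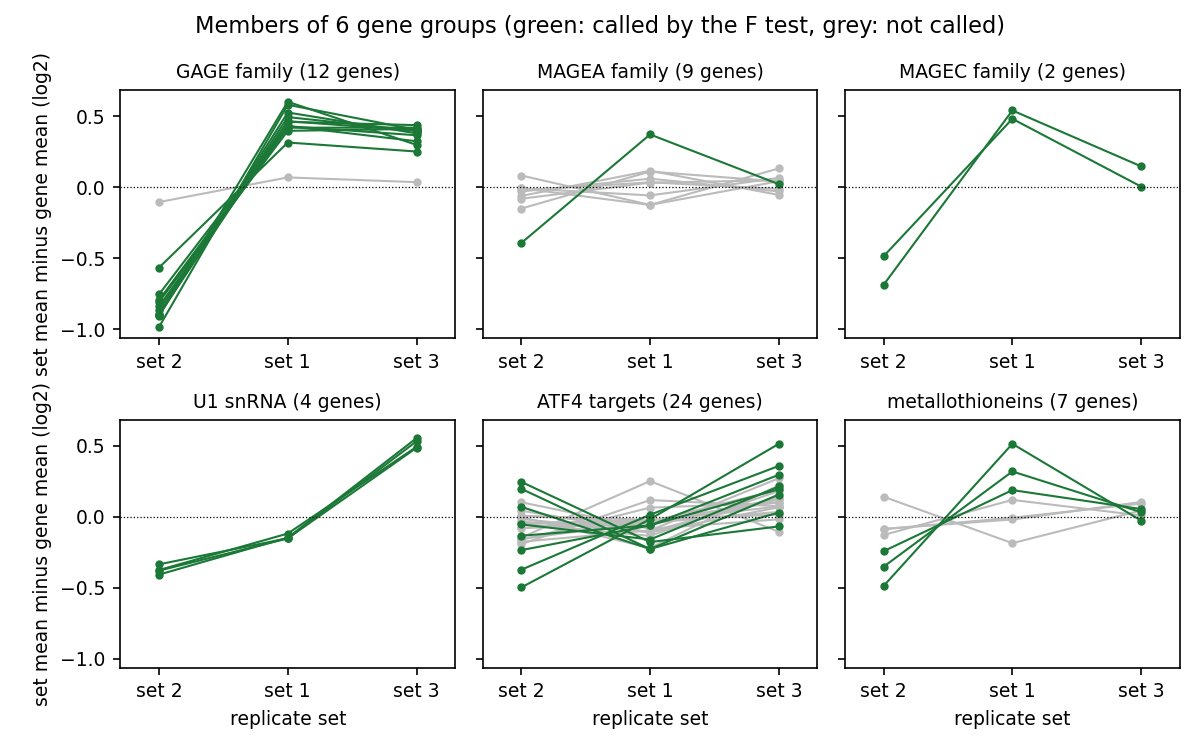
Mean of each replicate set (2, 1, 3 along the x axis) minus the gene's mean over the 9 arrays, on the log2 scale, for each measured member of 6 gene groups; green lines are genes called among sets by the limma F test and grey lines are genes not called. The 11 green GAGE lines are low in set 2, the 4 U1 snRNA lines are high in set 3, and the 3 green metallothionein lines peak in set 1.

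C1QTNF1, SERPINA3 and COL8A1 were also lowest in set 2. C1QTNF1, a secreted C1q-like protein, had 9.11, 8.62 and 8.71 in set 2, 10.63, 10.20 and 10.18 in set 1, and 10.65, 10.42 and 10.40 in set 3. Set 2 was far below the rest, and sets 1 and 3 overlapped. C1QTNF1 had the largest difference of the genes lowest in set 2 and highest in set 3, at 3.2-fold (-1.68, SE 0.0834, limma adjusted p = 2.79e-08). SERPINA3, a secreted protease inhibitor, had 7.07, 6.92 and 7.03 in set 2, 8.47, 7.75 and 8.31 in set 1, and 8.74, 8.40 and 8.78 in set 3. It was 3.1-fold lower in set 2 than in set 3 (-1.63, adjusted p = 1.67e-07), and the difference was -2.63 with background-corrected intensities. COL8A1, a short-chain collagen, was 2.7-fold lower in set 2 than in set 1 (-1.43, adjusted p = 3.9e-07) and 2.05-fold lower than in set 3 (adjusted p = 1.47e-05), with 8.63, 7.60 and 7.90 in set 2, 9.78, 9.16 and 9.49 in set 1, and 9.40, 8.90 and 8.94 in set 3.

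Of 21 measured collagen and matrix genes, 5 were lower in set 2 than in set 3 and 1 was higher (median -0.08). Between these sets 3.27% of all genes were lower in set 2 and 2.4% higher. COL6A1, a chain of the collagen VI microfibril, had 8.90, 8.41 and 9.83 in set 2, 9.26, 9.36 and 9.47 in set 1, and 10.01, 9.96 and 10.48 in set 3. The control array of set 2 lay above all arrays of set 1, while all arrays of set 3 stood above both sets. COL6A1 was 2.15-fold lower in set 2 than in set 3 (limma adjusted p = 0.000558) and COL6A2 and the proteoglycan gene BGN were 1.63-fold and 1.73-fold lower (adjusted p = 0.000721 for each). With background-corrected intensities these calls missed the threshold (adjusted p = 0.0658, 0.0502 and 0.0621). Of 12 measured TGF-beta and BMP targets, 3 were lower in set 2 than in set 3 and 0 higher: the matrix protein TGFBI at -0.67, PMEPA1, an inhibitor of TGF-beta signalling, at -0.64, and LTBP2 at -0.55 (adjusted p = 0.000286, 0.00241 and 0.00268). TGFBI was lower than in set 1 as well, at -0.70 (adjusted p = 0.00037, and 0.0523 with background-corrected intensities). The PMEPA1 call was lost with background-corrected intensities (adjusted p = 0.088), and the LTBP2 difference grew to -1.09. COL1A2, also counted as a fibroblast marker above, was at -0.41 (adjusted p = 0.00989, and 0.124 with background-corrected intensities). The COL1A2 call was also lost without siRNA 1 replicate 2, siRNA 1 replicate 3 or control replicate 3 (highest adjusted p 0.0861). DCN and LUM, other markers on that list, lay between 6.55 and 6.97 on every array.

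Set 1 stood apart for a smaller group of genes. THBS1, thrombospondin 1, had 11.72, 11.05 and 11.81 in set 2, 12.26, 11.65 and 12.03 in set 1, and 11.41, 10.84 and 11.17 in set 3. Set 1 was highest and set 3 lowest within each siRNA group. THBS1 was 1.79-fold higher in set 1 than in set 3 (0.84, limma adjusted p = 0.000214, and 0.0593 with background-corrected intensities) and 1.37-fold lower in set 2 than in set 1 (adjusted p = 0.0155, and 0.194 with background-corrected intensities). The second call was lost without replicate 1 or 2 of either FOXD1 siRNA (highest adjusted p 0.107). FRMD6, a FERM domain protein, and ZNF200, a zinc finger protein, were 1.47-fold and 1.55-fold higher in set 1 than in set 3 (adjusted p = 0.00207 and 0.000654, and 0.116 and 0.0591 with background-corrected intensities).

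Of 7 measured metallothioneins, small cysteine-rich proteins that bind zinc and copper, 3 were lower in set 2 than in set 1 and 0 higher (median -0.25, 1.58% of all genes lower). With probes detected on all 9 arrays that median was -0.08, and the median of set 1 minus set 3 was -0.10, against 0.11 as fitted. MT1E had 9.83, 8.66 and 9.13 in set 2, 10.87, 9.36 and 10.39 in set 1, and 10.27, 9.00 and 9.73 in set 3. The siRNA groups differed widely, and within each of them the order was set 1, set 3, set 2. MT1E was 2-fold lower in set 2 than in set 1 (limma adjusted p = 2e-05, and 0.0137 with background-corrected intensities). MT1X followed at -0.67 for set 2 minus set 1 (adjusted p = 0.000896, and 0.071 with background-corrected intensities).

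Genes lowest in set 1 and highest in set 2 included CITED1, a transcriptional co-regulator. It had 8.70, 9.42 and 9.46 in set 2, 7.85, 8.18 and 8.65 in set 1, and 8.43, 8.62 and 9.03 in set 3. Within each siRNA group set 2 was the highest and set 1 the lowest, at 1.95-fold (0.97, limma adjusted p = 3.9e-05). The 28S ribosomal RNA probe, RNA28SN5, had 12.01, 12.00 and 12.18 in set 2, 11.22, 11.25 and 11.12 in set 1, and 11.55, 11.53 and 11.62 in set 3. Its 3 sets did not overlap, the siRNA groups gave an adjusted p of 0.88, and set 2 was 1.82-fold above set 1 (adjusted p = 2.1e-05). TF, the iron carrier transferrin, and SPRY1, a feedback inhibitor of ERK signalling, were 1.87-fold and 1.8-fold higher in set 2 than in set 1 (adjusted p = 0.000228 and 0.00054, and 0.0502 and 0.059 with background-corrected intensities).

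A further group of genes was high in set 3. MYL10, a myosin light chain, had 6.85, 6.64 and 6.69 in set 2, 7.32, 6.91 and 7.00 in set 1, and 8.57, 7.83 and 8.28 in set 3. Sets 2 and 1 lay near the low end of the array's range, and set 3 was above both on every array. MYL10 was 2.83-fold lower in set 2 than in set 3 (-1.50, limma adjusted p = 2.27e-07) and 2.22-fold lower in set 1 than in set 3 (adjusted p = 1.38e-05), and the differences were -2.87 and -1.94 with background-corrected intensities. TAGLN3, a neuronal calponin-like protein, had 6.79, 6.68 and 7.14 in set 2, 7.23, 6.81 and 7.98 in set 1, and 8.17, 7.48 and 9.17 in set 3. It was 2.65-fold lower in set 2 than in set 3 (adjusted p = 3.71e-05), and -2.48 with background-corrected intensities. RGS4, which shortens signalling by G proteins, was 2.61-fold lower in set 2 than in set 3 (adjusted p = 2.15e-06) and 1.79-fold lower than in set 1 (adjusted p = 0.00068, and 0.0579 with background-corrected intensities).

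RASD2, a small GTPase, had 7.32, 7.10 and 7.11 in set 2, 6.83, 6.71 and 6.89 in set 1, and 7.98, 8.25 and 8.02 in set 3. Its 3 sets did not overlap and its siRNA groups gave an adjusted p of 0.955. RASD2 was 2.42-fold lower in set 1 than in set 3 (-1.27, limma adjusted p = 6.04e-06) and the difference was -2.44 with background-corrected intensities. IL17B, a cytokine, was 2.55-fold lower in set 1 than in set 3, with 8.97, 8.46 and 8.98 in set 2, 7.97, 7.80 and 8.55 in set 1, and 9.39, 9.21 and 9.77 in set 3 (adjusted p = 4.31e-06). RDH5, a retinol dehydrogenase, and MMP1, the interstitial collagenase, were 1.91-fold and 1.97-fold lower in set 1 than in set 3 (adjusted p = 7.57e-05 and 0.000637). The MMP1 call was lost with background-corrected intensities (adjusted p = 0.107), and the RDH5 difference grew from -0.93 to -1.45 with them.

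CTSG, the protease cathepsin G, combined both sources of variation. It had 7.22, 7.04 and 9.03 in set 2, 7.03, 7.20 and 8.73 in set 1, and 8.28, 8.40 and 9.82 in set 3. Control arrays were high in every set, and set 3 was the highest within each siRNA group. It was 2.27-fold lower in set 1 than in set 3 (limma adjusted p = 1.38e-05, and 0.0593 with background-corrected intensities).

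Genes of U1 snRNA were high in set 3 as well, a group singled out after its values were seen. All 4 measured genes of U1 snRNA, which recognises the 5′ splice site, were lower in set 2 than in set 3 (median -0.89, 3.27% of all genes lower). They were lower in set 1 than in set 3 too (median -0.66, 1.08%). Between sets 2 and 1 limma called 0, and 3 had an unadjusted p under 0.05, as had 2036 of all 13440 genes. RNU1-3 had 8.08, 7.58 and 7.87 in set 2, 8.28, 7.87 and 8.16 in set 1, and 8.88, 8.47 and 9.06 in set 3, and within each siRNA group set 3 was the highest. With background-corrected intensities all 4 passed for set 2 against set 3 and limma called 0 for set 1 against set 3, with 4 at an unadjusted p under 0.05. These copies are near-identical, and their probes may read the same RNA. SCARNA9, a small Cajal body RNA, was 2.66-fold lower in set 2 than in set 3 (limma adjusted p = 6.39e-07). Of 148 measured snoRNA and scaRNA genes, 11 were called among sets, where 5.92% of all genes were. Between sets 2 and 3 they had no common direction, with 2 higher and 2 lower in set 2 (median 0.01). Most calls in the contrasts with set 1 were lower in set 1. In set 2, 6 were higher and 1 lower than in set 1 (median 0.05, 1.18% of all genes higher). In set 1, 0 were higher and 4 lower than in set 3 (median -0.06, 1.08% of all genes lower). With background-corrected intensities limma called 1 higher in set 2 than in set 1 and 0 between sets 1 and 3.

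Other lists held few calls, as the plot of list medians shows, and the plot of 12 genes by set gives array values for genes described above. For set 2 against set 3, 2.4% of all genes were higher in set 2 and 3.27% lower. In the immediate early list, 4 of 19 genes were lower and 1 higher in set 2 than in set 3, FOSB, a subunit of AP-1, among the lower at -0.58 (limma adjusted p = 0.00238, and 0.0718 with background-corrected intensities). Of 24 measured genes of cholesterol and fatty acid synthesis, 4 were higher and 0 lower in set 2 than in set 1 (median 0.08). Of all genes, 1.18% were higher there. Each of these 4 calls was lost in at least 1 fit that omitted a single array (highest adjusted p 0.163). With background-corrected intensities limma called 0 of the 24 in that contrast, with 8 higher and 1 lower at an unadjusted p under 0.05. The chemokine CXCL1 was 1.65-fold higher in set 2 than in set 3 (adjusted p = 0.000387, and 1.12 on the log2 scale with background-corrected intensities) among 15 measured NF-kB targets, of which 2 were lower. Of 16 contractile and SRF targets, 2 were lower, with ACTA2, smooth muscle actin, at -0.78 (adjusted p = 0.00234, and 0.0927 with background-corrected intensities), and 1 was higher. In 22 YAP, TAZ and TEAD targets 1 was lower, and in 16 genes of the dedifferentiated state 1 was higher and 1 lower. Against set 1, 3 of those 16 were lower in set 2 and 0 higher (median -0.22, 1.58% of all genes lower), namely THBS1, TGFBI and AXL, a receptor tyrosine kinase, with 9 at an unadjusted p under 0.05. The AXL call was lost without the same 4 arrays as that of THBS1 (highest adjusted p 0.165), and with the mean of its kept probes. With background-corrected intensities limma called 0 of the 16 against set 1, with 7 at an unadjusted p under 0.05. Limma called 0 of 36 oxidative phosphorylation genes and 0 of 19 ribosome biogenesis genes in each contrast. At an unadjusted p under 0.05 each of these lists held 2, 3 and 2, in the order used above. Over all 13440 genes the numbers were 2541, 2036 and 1833. For the ribosomal proteins, 1 of 52 cytosolic ribosomal protein genes was lower in set 2 than in set 3. Of 23 p53 targets and 29 hypoxia targets, 1 each was higher in set 2 than in set 3.

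**Figure D4:**
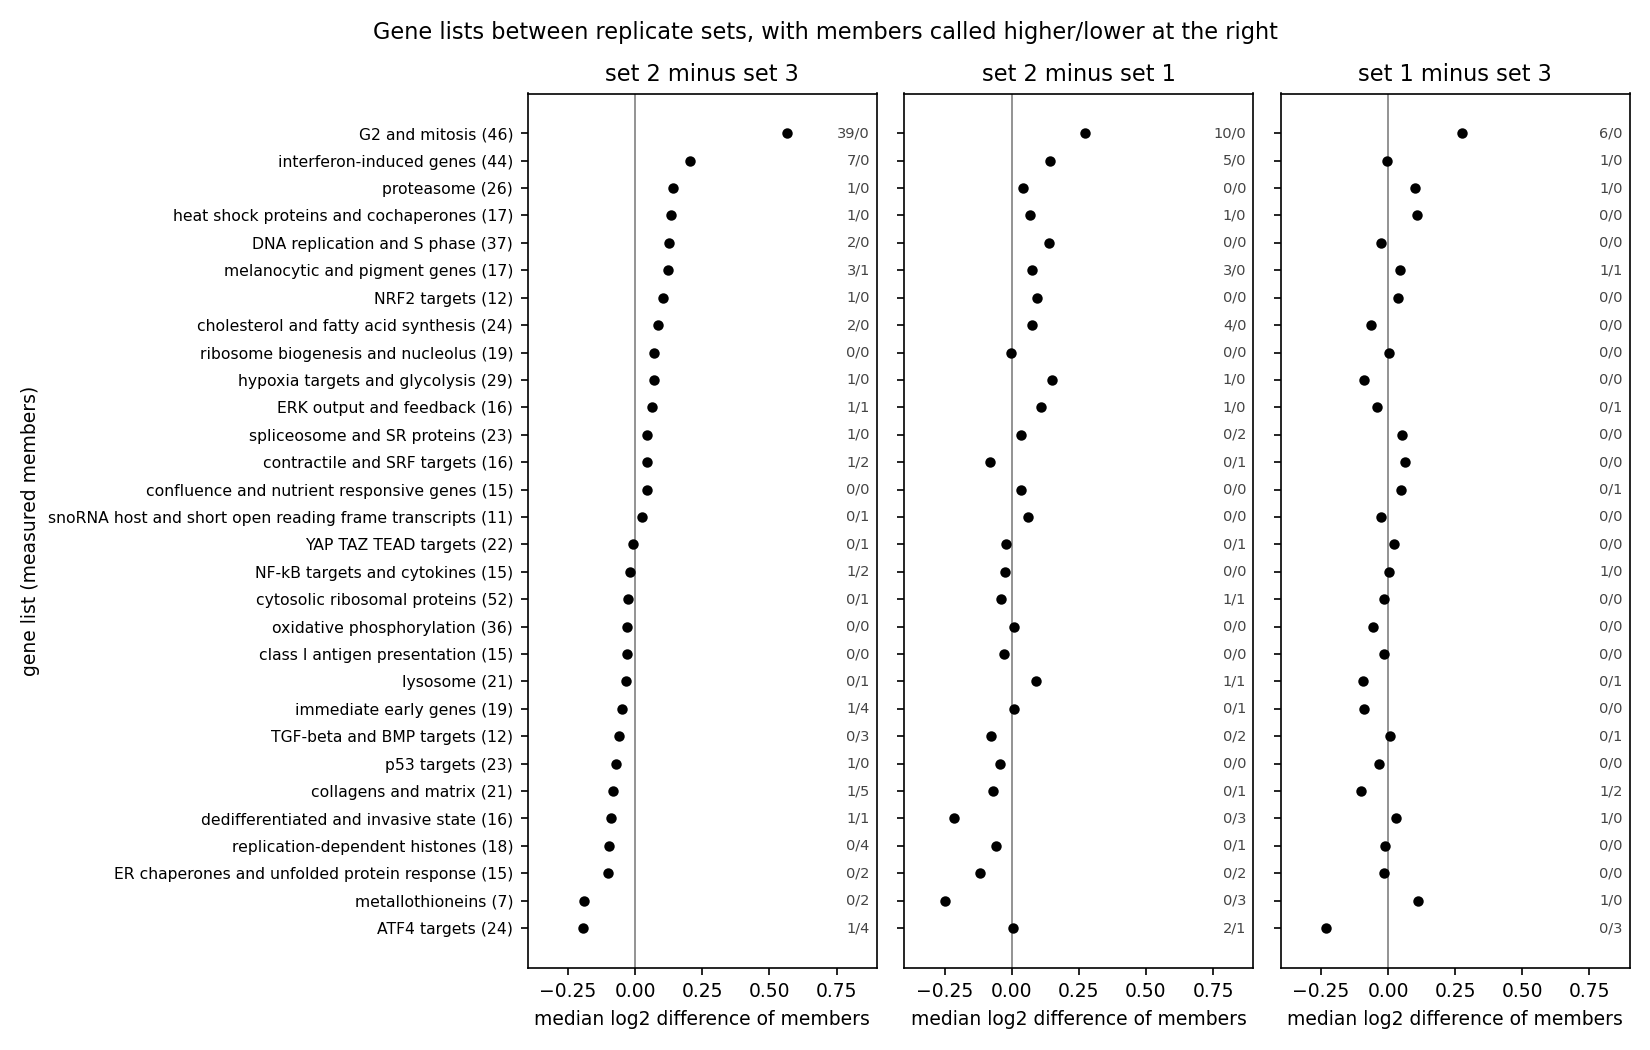
Median log2 difference between replicate sets over the measured members of 30 gene lists (numbers of measured members in brackets), for set 2 minus set 3, set 2 minus set 1 and set 1 minus set 3; the pair at the right of each row counts members called higher and lower at an adjusted p under 0.05. The G2 and mitosis list stands furthest to the right in each panel, at 0.57, 0.27 and 0.28, and the ATF4 list furthest to the left for set 2 minus set 3 and for set 1 minus set 3, at -0.19 and -0.23.

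**Figure D5:**
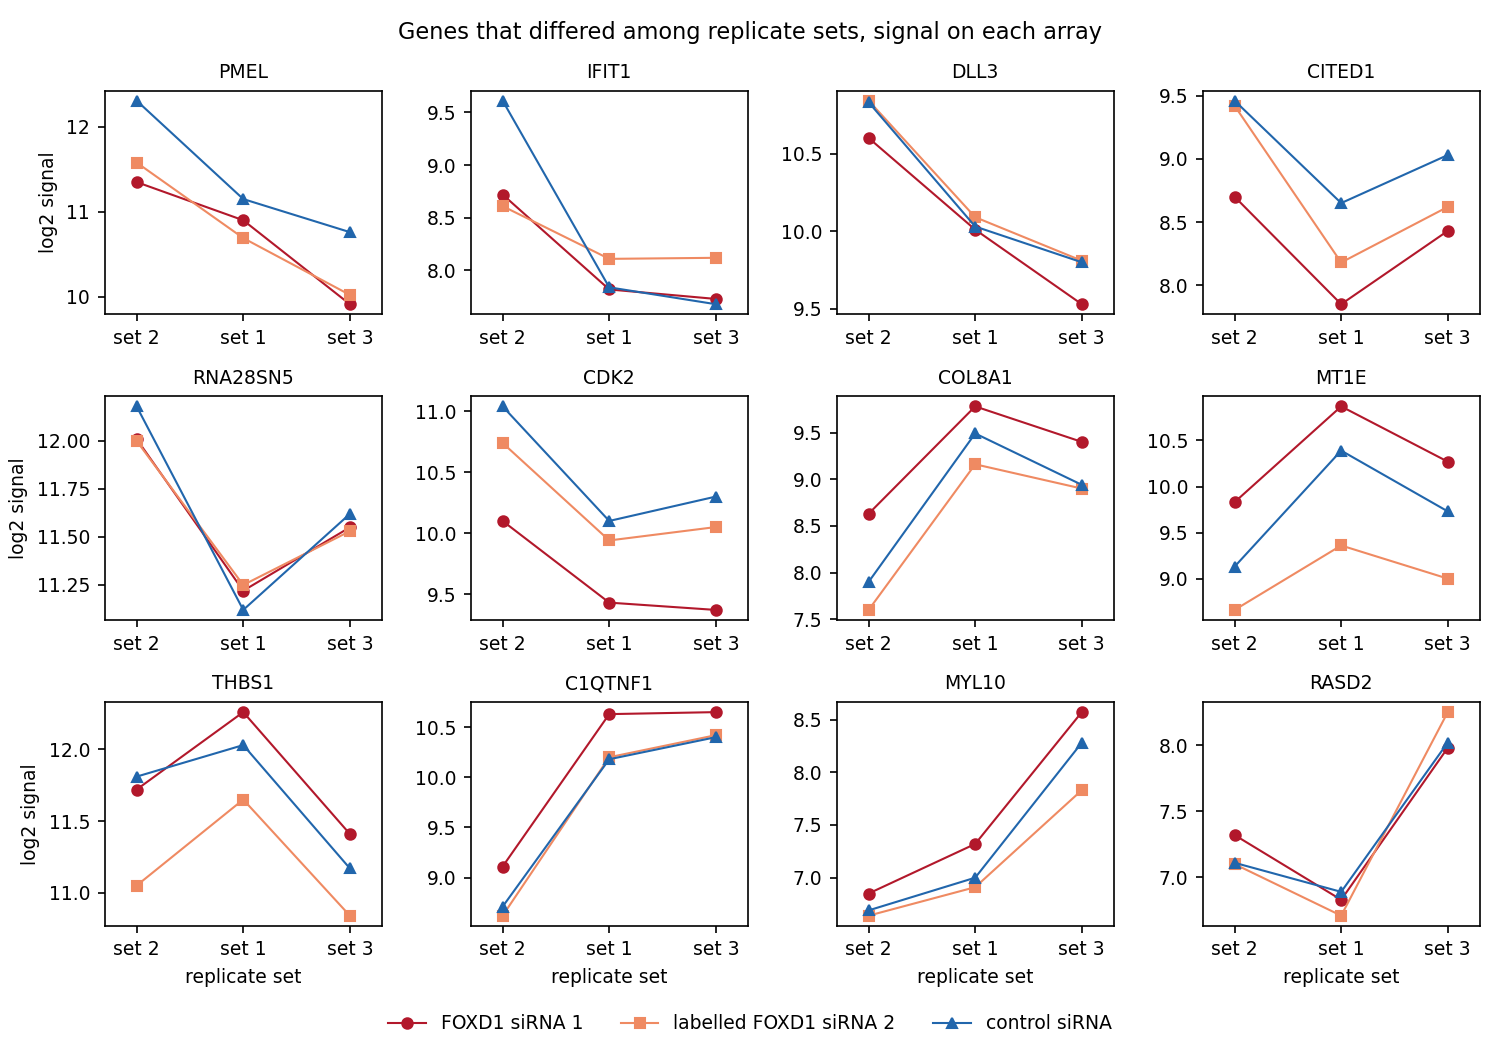
Log2 signal of 12 genes on each of the 9 arrays by replicate set (2, 1, 3 along the x axis), with lines joining arrays of 1 siRNA group (red circles FOXD1 siRNA 1, orange squares labelled FOXD1 siRNA 2, blue triangles control siRNA). Within each siRNA group PMEL and DLL3 are highest in set 2 and lowest in set 3, RNA28SN5 and CITED1 are lowest in set 1, and C1QTNF1 is lowest in set 2.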

How the data were processed

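Total RNA of the 9 WM266-4 arrays was measured on Illumina bead arrays. The authors deposited intensities per probe, not normalized per the file headers, with a detection p-value beside each. Their deposited log2 values matched the log2 of the quantile-normalized intensities to within 0.00527, with no background subtraction. Scanner software and the normalization steps are not given in the sources used here.

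Of 48107 probes, 48099 were complete, and 30108 of these carry 1 gene symbol, 8 several and 17983 none. Probes with a detection p under 0.05 on at least 3 of 9 arrays were kept (18114), and the probe with the highest mean stood for its gene, which gave 13440 genes, 3619 of them with several kept probes. Among the 796 genes called by set, 287 had another kept probe, and for 41 of these another probe went the opposite way. The precision rests on the number of arrays: the fit had 4 residual degrees of freedom and a prior of 11.3.

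The log2 values were fitted with limma 3.58.1 in R 4.3.3 (statmod 1.5.0), with set and siRNA group as terms, and p-values were adjusted by Benjamini-Hochberg over all genes at a threshold of 0.05. The procedure was tested on simulated data. Equal numbers in the titles paired the samples. All 9 pairs of arrays with an equal number and different siRNA groups had a correlation of deviations of 0.244 or more. This correlation uses the same values as the test among sets, so it is not separate evidence for the set differences. The pairing comes from the title numbers alone, and no label states it.

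Members and gene lists were chosen with earlier results of these data known. In each pattern of highest and lowest set, up to 6 genes with the largest difference could be named, if detected on all 9 arrays, called, and of 1 sign in every siRNA group. In each list up to 6 called members could be named, and any member as an example of one not called. FOXD1 and CCN2 were named besides. The GAGE, MAGE, XAGE, PAGE, SPANX, U1 and small nucleolar RNA families were taken up after their values were seen. Some members were named outside this rule, also after their values were seen, such as MAGEC2, MAGEA10, SPANXN3 and RNU1-3. Alternatives covered the source of the values, centring, the filter on dim probes, the probe per gene, the variance moderation, the covariate and leaving out arrays or siRNA groups.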

Additional observations from a re-analysis of the deposited data

How the results depend on the processing

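Counts are given in the order all 3 sets, set 2 against set 3, set 2 against set 1, set 1 against set 3, which were 796, 761, 371 and 223 as reported. With background-corrected intensities they were 129, 183, 68 and 6, with 10 mitosis genes and 0 interferon-induced genes higher in set 2 than in set 3 by limma (44 and 13 higher at an unadjusted p under 0.05). Without the siRNA group in the fit they were 24, 27, 18 and 1, and both lists gave 0.

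Without the siRNA 1 group they were 209, 264, 82 and 30, with 16 mitosis and 2 interferon-induced genes and 2270 genes between the remaining siRNA groups. Without the siRNA 2 group they were 347, 343, 128 and 84, with 4 interferon-induced genes. Without the control group they were 363, 393, 177 and 42, with 2 interferon-induced genes and 2388 genes between siRNA groups.

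Leaving out 1 array gave 471 to 711, 394 to 803, 154 to 296 and 56 to 312, with 31 to 40 mitosis and 2 to 8 interferon-induced genes. Besides the arrays named in the report, set 2 against set 3 moved by over 1.5 times without control replicate 3 (400), siRNA 1 replicate 2 (487), siRNA 1 replicate 3 (436) or siRNA 2 replicate 3 (394). Set 2 against set 1 did so without control replicate 1 (211), siRNA 1 replicate 1 (154), siRNA 1 replicate 2 (191) or siRNA 2 replicate 1 (157). Set 1 against set 3 did so without control replicate 1 (89), control replicate 3 (56), siRNA 1 replicate 1 (75), siRNA 1 replicate 3 (67), siRNA 2 replicate 1 (106) or siRNA 2 replicate 3 (98).

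The siRNA count of 4683 was fitted with the set as a replicate block, and with no replicate block it was 3273. Of 103 set differences of named genes, 63 passed in all fits that omitted 1 array and 40 failed in at least 1 of them. No called difference of a named gene changed sign under the alternatives run. Of 18 list medians, 4 changed sign under at least 1 alternative: metallothioneins for set 1 minus set 3 (-0.10 with probes detected on all 9 arrays, 0.11 as reported) and 3 that were near 0 as reported. These were ATF4 targets for set 2 minus set 1 (6 alternatives, down to -0.07), pigment genes for set 1 minus set 3 (3, down to -0.01) and interferon-induced genes for set 1 minus set 3 (5, up to 0.05). The causes of these changes were not tested, apart from fewer arrays where some were left out. The set and siRNA terms cannot be tested for interaction, and values near background understate differences.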
